A study of Homo sapiens with 9 samples.

Results

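Aldehyde dehydrogenases oxidise aldehydes to carboxylic acids with NAD or NADP. The genes examined here were 10 named members of the family other than ALDH3A1, namely ALDH1A1, ALDH1A3, ALDH1B1, ALDH2, ALDH3A2, ALDH3B1, ALDH4A1, ALDH5A1, ALDH7A1 and ALDH9A1. They were taken by annotated gene symbol, with every probe of such a symbol. All 10 were on the array, with 21 probes, among 20046 genes named by a probe that had a value. The filter on dim probes kept 20 of the 21, and all 10 genes were tested among 13769 genes.

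RNA came from 3 isogenic lines of H3122, human lung adenocarcinoma cells with the E13;A20 form of the EML4-ALK fusion, with 3 arrays a line. Parental cells respond to crizotinib (labelled PF1066) and to X-376, both inhibitors of ALK. Cells called PF1066R, also called H3122 CR, were derived from them as resistant to crizotinib, and X376R cells, also called H3122 XR, as resistant to X-376. All 3 lines carry the fusion, and there is 1 resistant line per drug, so drug and line cannot be told apart. The sources used here give neither doses, nor the length of selection, nor whether inhibitor was present at lysis, nor whether a line's arrays came from separate cultures. The p-values therefore rest on the spread among these arrays alone, and that spread may be technical.

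The family is known for several separate jobs. ALDH1A1 and ALDH1A3 make retinoic acid from retinaldehyde in the cytosol and carry much of the enzyme activity by which stem-like cells of lung tumours are often sorted. ALDH2 and its relative ALDH1B1 clear acetaldehyde in mitochondria, and ALDH3A2 and ALDH3B1 act on long-chain and lipid-derived aldehydes at membranes. ALDH4A1, ALDH5A1, ALDH7A1 and ALDH9A1 are steps in the breakdown of proline, of GABA, of lysine and in the making of carnitine and GABA.

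Promoter sequence is shown for the pair of retinaldehyde dehydrogenases, which moved in opposite directions in PF1066R, and for ALDH3A2 and ALDH9A1, which were higher in both resistant lines. Each is the 250 bases upstream of the annotated gene start, from RefSeq on GRCh38.p14, where 9 of the 10 members were matched. The windows lie at chr9:72953054-72953303 (minus strand), chr15:100879581-100879830 (plus strand), chr17:19647886-19648135 (plus strand) and chr1:165698563-165698812 (minus strand). Capitals mark matches on either strand to GCGTG (the core of the aryl hydrocarbon receptor element), TGACNNNGC (the core of the antioxidant response element), CACGTG (an E-box) or CCAAT. A match is a description of letters and not a shown binding site.
ALDH1A1: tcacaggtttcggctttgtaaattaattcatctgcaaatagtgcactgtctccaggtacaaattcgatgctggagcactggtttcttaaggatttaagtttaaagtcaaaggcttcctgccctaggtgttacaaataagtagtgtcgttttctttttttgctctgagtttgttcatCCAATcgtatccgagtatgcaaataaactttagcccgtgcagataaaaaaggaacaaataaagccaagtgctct
ALDH1A3: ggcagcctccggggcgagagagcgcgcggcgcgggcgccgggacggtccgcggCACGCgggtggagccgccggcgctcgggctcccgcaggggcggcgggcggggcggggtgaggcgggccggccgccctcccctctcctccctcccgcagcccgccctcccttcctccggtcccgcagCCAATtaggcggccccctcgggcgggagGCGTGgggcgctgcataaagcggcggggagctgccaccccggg
ALDH3A2: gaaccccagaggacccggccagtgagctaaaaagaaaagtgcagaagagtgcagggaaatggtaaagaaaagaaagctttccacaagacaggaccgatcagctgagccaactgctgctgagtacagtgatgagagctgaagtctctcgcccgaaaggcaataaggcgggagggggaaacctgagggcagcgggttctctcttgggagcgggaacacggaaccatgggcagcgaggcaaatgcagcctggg
ALDH9A1: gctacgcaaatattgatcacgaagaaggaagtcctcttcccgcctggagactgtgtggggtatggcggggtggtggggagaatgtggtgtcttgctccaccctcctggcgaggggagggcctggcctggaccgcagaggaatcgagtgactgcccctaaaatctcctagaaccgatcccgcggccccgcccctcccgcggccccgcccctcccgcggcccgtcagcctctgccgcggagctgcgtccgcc
The ALDH1A1 window held 1 CCAAT match in 38.4% G and C, whereas the ALDH1A3 window, at 82.4% G and C, held 1 CCAAT and 2 GCGTG matches. The windows of ALDH3A2 and ALDH9A1 held none of the 4 motifs. Over the 9 members with a window, GCGTG was found in 2 (ALDH1A3 and ALDH5A1) and CCAAT in 4 (ALDH1A1, ALDH1A3, ALDH1B1 and ALDH7A1). The other 2 motifs were found in 0 of the 9. Among all 35116 windows of this length in the table, 32.2% held GCGTG, 10.9% TGACNNNGC, 6.35% CACGTG and 32.0% CCAAT.

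Mean probe signal was 163 to 298 units on the 9 arrays, highest on a Parental array and lowest on an X376R array, and between 36.0% and 65.9% of an array's probes exceeded background. Background on an array was set by the brightest of 92 external control probes. All 6 epithelial markers examined, EPCAM, CDH1 and 4 keratins, and the lung factor NKX2-1 lay above background on all 9 arrays. The summed raw signal of the 6 epithelial markers was 11061 to 15616 in Parental, 7466 to 12636 in PF1066R and 6280 to 8835 in X376R. Raw signals are not adjusted for array brightness, and mean probe signal was 230 to 298, 175 to 234 and 163 to 180 in these lines. Within the sum KRT7 went the other way, with mean signals of 1278, 716 and 1612. The surfactant gene SFTPC, the T cell marker CD3E and the fibroblast receptor PDGFRB were not above background on any array. Other genes of the same lists were, namely CD68 and COL1A1 on 9 arrays, NAPSA on 7, COL1A2 on 6, SFTPB and COL3A1 on 4 and PTPRC on 3. In the leukocyte list 2 of 4 genes passed the filter, in the fibroblast list 3 of 4 and in the endothelial list 2 of 3. The summed raw signal of the 3 endothelial genes was 249 to 296, 300 to 430 and 406 to 440 in Parental, PF1066R and X376R. Within it CDH5 had mean signals of 85.0, 177 and 244, PECAM1 of 101, 91.9 and 85.7, and VWF, which failed the filter, of 82.9, 80.4 and 87.6. The part of these marker differences in the results was not tested. Values below are log2 signals after background correction and quantile normalization. Changes are given ± SE from a limma model of all 9 arrays, with n = 3 arrays a line and adjusted p by Benjamini-Hochberg over the 13769 genes.

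Of the 10 members, 6 passed an adjusted p of 0.05 in PF1066R against Parental, 3 higher and 3 lower. Over all genes tested, 18.4% passed in that comparison, 9.08% higher and 9.36% lower. In X376R against Parental 6 members passed, 4 higher and 2 lower, where 28.1% of all genes passed, 14% higher and 14.2% lower. Between the resistant lines 5 passed, 3 higher and 2 lower in X376R, where 16.1% of all genes passed, 7.97% higher and 8.1% lower. The median size of change, without sign, was 0.45, 0.54 and 0.50 on the log2 scale for the members in these 3 comparisons, beside 0.15, 0.18 and 0.15 for all genes. Signed medians were -0.04, 0.12 and 0.26 for the members, beside -0.01, -0.01 and -0.00 for all genes. The arrays of the 2 lines compared did not overlap for 6 members in PF1066R (3 above and 3 below Parental), against 33.7% of all genes, 16.5% above and 17.2% below. The same held for 6 in X376R (4 above and 2 below), against 38.8%, 18.7% above and 20.1% below. Between the resistant lines it held for 7 (5 above and 2 below), against 29.1%, 14.2% above and 15% below. Of the members' 20 probes, 8, 9 and 7 passed in the 3 comparisons when adjusted over all probes, beside 13%, 20.2% and 11.3% of all probes. Across the 3 comparisons 8 members passed at least 1, ALDH1A3, ALDH2 and ALDH3A2 passed all 3, and ALDH5A1 and ALDH7A1 passed none. ALDH1A1, counted in PF1066R against Parental and between the resistant lines, entered the test through PF1066R, where it was high. Both resistant lines are set against the same Parental arrays, so their changes are not independent of each other. The members were chosen with earlier results of these data known, so their shares beside those of all genes are a description only.

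When arrays were centred on their medians and not quantile-normalized, the median change of all genes was -0.12 in PF1066R and -0.19 in X376R against Parental. Of the genes that passed, 215 were then higher and 2224 lower in PF1066R, where quantile normalization gave 1250 and 1289. The same split was 388 and 4199 in X376R, beside 1926 and 1949, and 275 and 703 between the resistant lines, beside 1098 and 1115. Members split into 1 higher and 4 lower in each resistant line, and into 2 and 2 between the lines. Members' called decreases from Parental were larger and their called increases smaller in that scaling, and the calls that it ends are named with each gene. In the authors' normalized table the arrays of replicates 2 and 3 kept the order of the deposited signals (Spearman's rho of 1.00 over probes), while replicate 1 arrays gave 0.943 to 0.953. Of the member calls, those of ALDH1B1 and ALDH3A2 in PF1066R and of ALDH4A1 in X376R were lost with replicates 2 and 3 alone (limma adjusted p of 0.165, 0.125 and 0.0621). Replicate 1 alone leaves 1 array a line and no test.

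**Figure D1:**
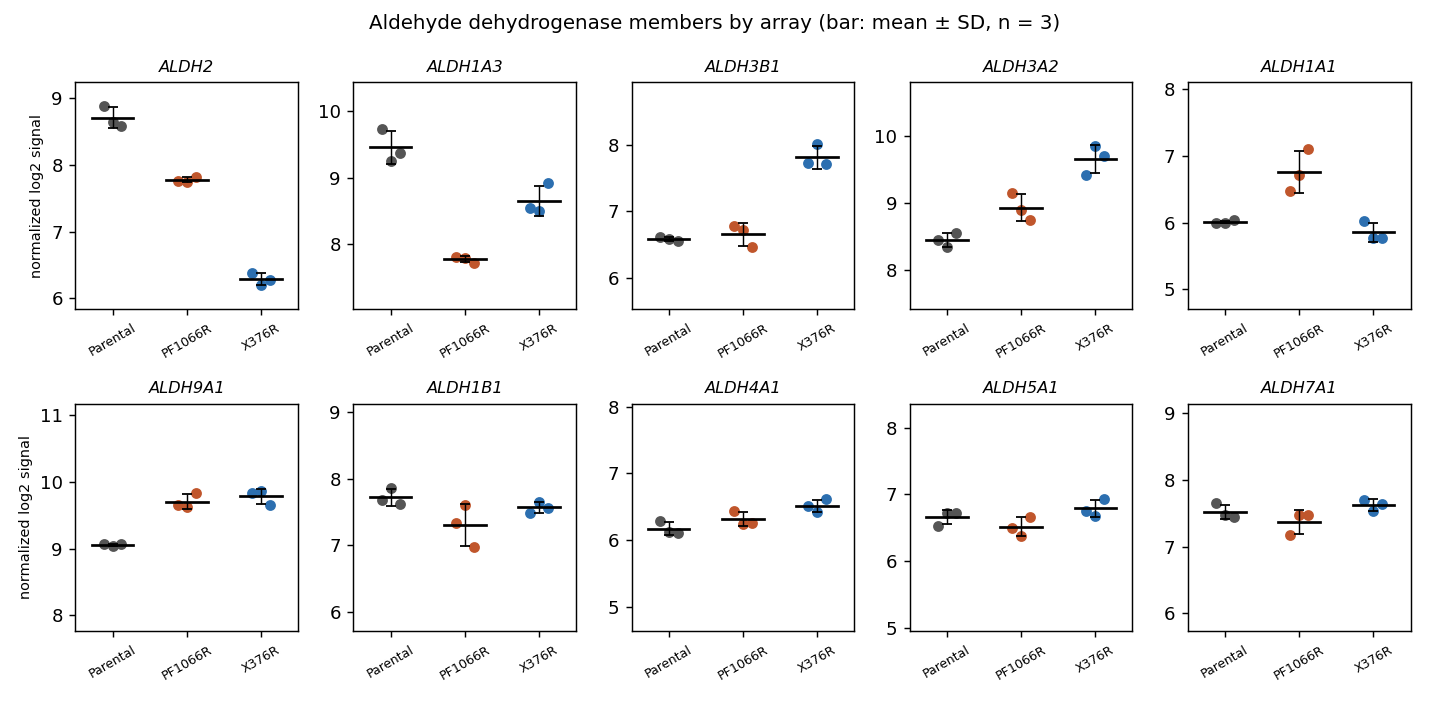
Normalized log2 signal (y axis) of the 10 members on the 9 arrays, by line (x axis); points are arrays and bars give the mean ± SD of 3 arrays. Every panel spans the same log2 height, ALDH2 steps down from Parental (mean 8.71) to PF1066R (7.78) and X376R (6.29), and the ALDH5A1 and ALDH7A1 means differ least.

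ALDH2, the mitochondrial enzyme that clears acetaldehyde, showed the widest gap between lines of the 10 members. Its single probe, ILMN_1793859, read 8.89, 8.65 and 8.59 on the Parental arrays, 7.76, 7.75 and 7.82 on the PF1066R arrays, and 6.38, 6.21 and 6.27 on the X376R arrays. The 3 lines did not overlap, with Parental highest and X376R lowest. ALDH2 was 1.91-fold lower in PF1066R (-0.93 ± 0.11, limma adjusted p = 1.48e-05) and 5.36-fold lower in X376R (-2.42 ± 0.11, limma adjusted p = 5.33e-11) than in Parental. It was also 2.81-fold lower in X376R than in PF1066R (-1.49 ± 0.11, limma adjusted p = 3.64e-08). Its raw signal was 460 to 630 units in Parental and 88.7 to 96.5 in X376R, where the external controls reached 83.0 to 88.2. The X376R level thus lay above background on all 3 arrays but close to the limit. In RNA from whole cultures, fewer cells that express a gene and less RNA per cell cannot be told apart.

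ALDH1B1, the mitochondrial relative of ALDH2, differed less. Its brighter probe read 7.67, 7.86 and 7.62 in Parental, 7.33, 7.60 and 6.97 in PF1066R and 7.49, 7.65 and 7.56 in X376R. The PF1066R arrays lay below all Parental arrays, while the X376R arrays overlapped both. The change was -0.42 ± 0.14 in PF1066R (limma adjusted p = 0.0434) and -0.15 ± 0.14 in X376R (limma adjusted p = 0.486, 95% interval -0.44 to 0.14). The PF1066R call was lost when any 1 of 6 arrays was left out, the smallest change being -0.26 without PF1066R replicate 3 (limma adjusted p = 0.226). It was also lost without background correction, without a filter and with array brightness in the model. The second probe gave -0.26 ± 0.13 (limma adjusted p = 0.224 over all probes). With arrays centred on their median, the changes were -0.76 and -0.66, and both passed (limma adjusted p = 0.00559 each).

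ALDH1A3, which makes retinoic acid, was the member with the second widest gap and had its lowest level in PF1066R. Probe ILMN_2139970 read 9.73, 9.25 and 9.37 in Parental, 7.80, 7.79 and 7.72 in PF1066R, and 8.54, 8.50 and 8.91 in X376R. The lines did not overlap, and X376R lay between the others. ALDH1A3 was 3.21-fold lower in PF1066R (-1.68 ± 0.14, limma adjusted p = 2.17e-07) and 1.74-fold lower in X376R (-0.80 ± 0.14, limma adjusted p = 0.000257). X376R was 1.84-fold above PF1066R (0.88 ± 0.14, limma adjusted p = 0.000201). A second probe, ILMN_1807439, gave -1.30 ± 0.17 and -0.89 ± 0.17 against Parental, both past the threshold over all probes (limma adjusted p of 4.93e-05 and 0.000849). Between the resistant lines that probe gave 0.41 ± 0.17 and did not pass (limma adjusted p = 0.142), with overlapping arrays. Centring arrays on their median gave -1.41 in X376R against Parental, or -1.23 relative to the median of all genes.

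ALDH1A1, the other retinaldehyde dehydrogenase, was dim and went the other way in PF1066R. Its probe ILMN_1709348 read 6.0, 6.0 and 6.03 in Parental, 6.47, 6.71 and 7.10 in PF1066R, and 6.02, 5.78 and 5.76 in X376R. PF1066R lay above both other lines on every array, and Parental and X376R overlapped. The probe was above background on 3 of 3 PF1066R arrays, 1 of 3 Parental and 0 of 3 X376R arrays. It therefore entered the test through the line where it was high. The fit put ALDH1A1 1.68-fold higher in PF1066R than in Parental (0.75 ± 0.14, limma adjusted p = 0.000958). With 1 of 3 Parental arrays above background, that fold is no measured size, and the p-value carries the same limit. No size is given for X376R against Parental, since the probe was at or near background in both. Since no X376R array was above background, PF1066R is best given as at least 1.53-fold higher than X376R. The limma adjusted p of 0.000172 belongs to the fitted values and does not test that bound. For that bound, each X376R array was taken at the lowest signal above background or at its own signal, whichever was higher. The second ALDH1A1 probe, above background in PF1066R alone, was at least 1.31-fold higher there than in Parental by the same kind of bound. Its fitted values had a limma adjusted p of 0.000407 over all probes, which does not test the bound either. That probe likewise entered the test through PF1066R.

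ALDH3A2, the fatty aldehyde dehydrogenase of the endoplasmic reticulum, was highest in X376R and intermediate in PF1066R. Probe ILMN_1794825 read 8.45, 8.35 and 8.55 in Parental, 9.16, 8.89 and 8.75 in PF1066R, and 9.43, 9.85 and 9.71 in X376R. The 3 lines did not overlap. The increase was 1.40-fold in PF1066R (0.48 ± 0.13, limma adjusted p = 0.0150) and 2.32-fold in X376R (1.21 ± 0.13, limma adjusted p = 2.30e-06). X376R exceeded PF1066R by 0.73 ± 0.13 (limma adjusted p = 0.000801). A second bright probe gave 0.45 ± 0.11 and 1.28 ± 0.11 against Parental, and the remaining, dim probe 0.16 ± 0.10 and 0.29 ± 0.10. With arrays centred on their median, none of the 3 calls passed, at 0.10, 0.57 and 0.47 (limma adjusted p of 0.823, 0.0755 and 0.292). Relative to the median of all genes in that scaling the 2 changes from Parental were 0.23 and 0.76. The PF1066R call also failed without Parental replicate 2 (limma adjusted p = 0.0591) or without PF1066R replicate 1 (limma adjusted p = 0.0877).

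ALDH3B1, which oxidises aldehydes from lipid peroxidation, was higher in X376R than in both other lines. Probe ILMN_1728662 read 6.62, 6.59 and 6.56 in Parental, 6.78, 6.71 and 6.46 in PF1066R, and 7.72, 8.01 and 7.70 in X376R. All X376R arrays lay above the others, and Parental and PF1066R overlapped. The gene was 2.33-fold higher in X376R than in Parental (1.22 ± 0.12, limma adjusted p = 7.13e-07) and 2.23-fold higher than in PF1066R (1.16 ± 0.12, limma adjusted p = 2.20e-06). PF1066R against Parental gave 0.06 ± 0.12 (limma adjusted p = 0.803, 95% interval -0.19 to 0.32). The probe had mean signals of 132, 118 and 199 in Parental, PF1066R and X376R. Parental and PF1066R were thus read near background, where changes may be understated. The gene's other probe, ILMN_1727965, gave 0.10 ± 0.13 in X376R (limma adjusted p = 0.707 over all probes). That probe was close to background, with mean signals of 103, 85.8 and 93.8 in Parental, PF1066R and X376R. It was above background on 3 of 3 Parental, 2 of 3 PF1066R and 2 of 3 X376R arrays. A probe this dim may miss a change, so whether the 2 probes disagree cannot be decided. The mean of both probes gave 0.66 in X376R against Parental and 0.71 against PF1066R, and passed in both (limma adjusted p = 0.000361 each). The position of each probe in the transcript was not used here. ALDH3B2, a close paralog, gave -0.28 ± 0.11 in X376R (limma adjusted p = 0.0789), and reads of one gene by the other's probes were not tested.

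**Figure D2:**
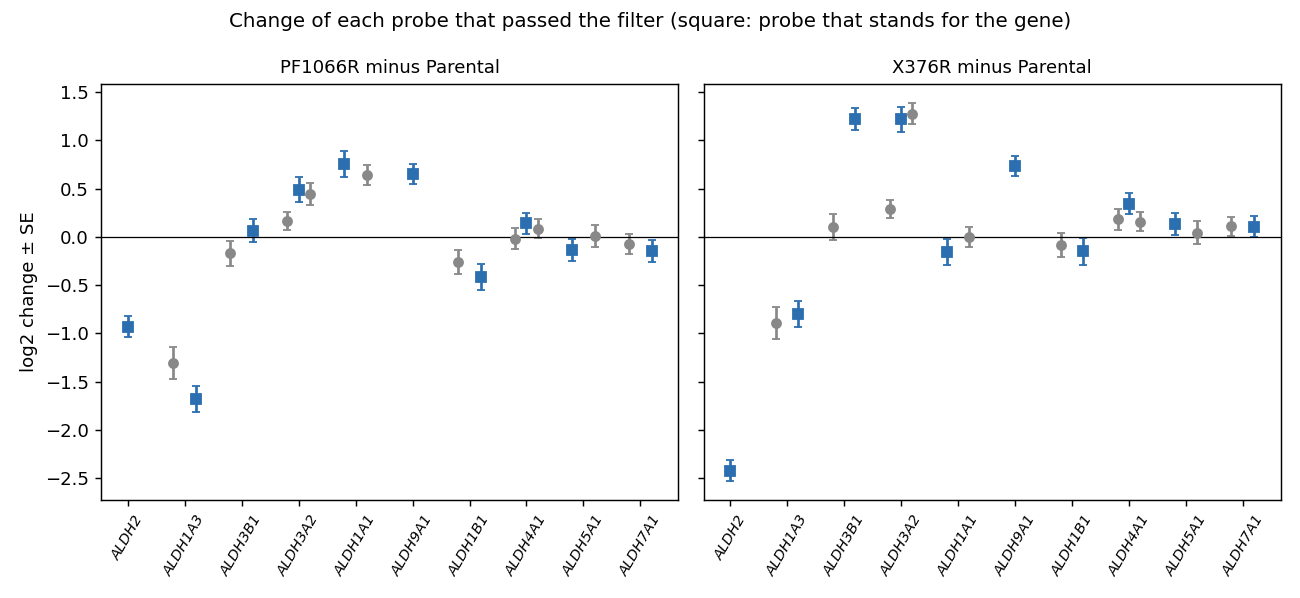
Log2 change ± SE (y axis) of each of the 20 member probes that passed the filter, by gene (x axis), for PF1066R and X376R against Parental; squares are the probes that stand for their gene and circles are further probes. Both probes of ALDH1A1 lie above 0 and both of ALDH1A3 below 0 in PF1066R. The 2 ALDH3B1 probes gave 1.22 and 0.10 in X376R, the latter from a probe close to background.

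ALDH9A1, which oxidises aminobutyraldehydes on the way to GABA and carnitine, was higher in both resistant lines by nearly the same amount. Its single probe, ILMN_1761804, read 9.06, 9.04 and 9.07 in Parental, 9.66, 9.63 and 9.83 in PF1066R, and 9.84, 9.86 and 9.65 in X376R. Both resistant lines lay above Parental and overlapped each other. The increase was 1.57-fold in PF1066R (0.65 ± 0.11, limma adjusted p = 0.000376) and 1.66-fold in X376R (0.73 ± 0.11, limma adjusted p = 5.96e-05). The resistant lines differed by 0.08 ± 0.11 (limma adjusted p = 0.710, 95% interval -0.15 to 0.31). With arrays centred on their median, both increases failed the test, at 0.29 and 0.09 (limma adjusted p of 0.338 and 0.790), or 0.41 and 0.27 relative to the median of all genes.

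The 3 members that act in amino acid breakdown in mitochondria had small changes, with ALDH4A1 and ALDH5A1 read near background. The ALDH4A1 probe had mean signals of 99.1, 98.6 and 101 in Parental, PF1066R and X376R. The ALDH5A1 probe had 140, 109 and 114, where the external controls reached 83.0 to 94.7. ALDH4A1 was above background on 2 of 3 Parental arrays and on every other array. A change may be understated this near background. ALDH4A1, which finishes the conversion of proline to glutamate, read 6.29, 6.13 and 6.10 in Parental, 6.43, 6.25 and 6.26 in PF1066R and 6.51, 6.43 and 6.61 in X376R. X376R lay above Parental on every array (0.34 ± 0.11, limma adjusted p = 0.0251), and PF1066R overlapped both. That call was lost with the mean of the gene's 3 passing probes (0.23, limma adjusted p = 0.0653), with arrays centred on their median, with array brightness in the model and without any 1 of 4 arrays. The remaining ALDH4A1 probe was not above background on any array.

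ALDH5A1, the succinic semialdehyde dehydrogenase that ends GABA breakdown, gave -0.14 ± 0.12 in PF1066R and 0.13 ± 0.12 in X376R (limma adjusted p of 0.482 and 0.465). Its intervals reached from -0.38 to 0.10 and from -0.11 to 0.38. ALDH7A1, which acts in lysine breakdown, gave -0.15 ± 0.12 and 0.11 ± 0.12 (limma adjusted p of 0.454 and 0.574), with intervals of -0.39 to 0.10 and -0.14 to 0.35. Median centring turned the X376R value of ALDH7A1 to -0.39 and took it past the threshold (limma adjusted p = 0.0280), and its PF1066R value to -0.48 (limma adjusted p = 0.0203). With 3 arrays a line, changes within these intervals could not be told from none.

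**Figure D3:**
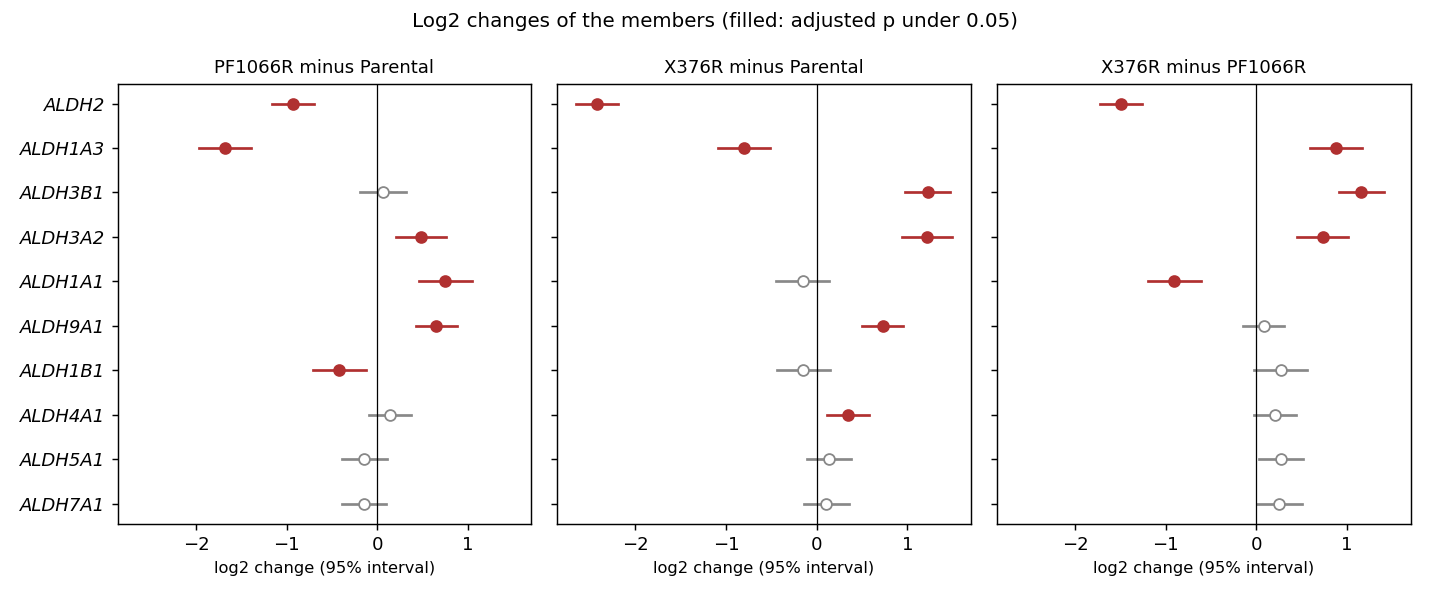
Log2 change with its 95% interval (x axis) of the 10 members (y axis) in the 3 comparisons; filled points passed an adjusted p of 0.05 and open points did not. ALDH1A3 and ALDH2 lie below 0 in both resistant lines, ALDH3A2 and ALDH9A1 above 0, with the last 2 not passing when arrays were centred on their median.

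**Figure D4:**
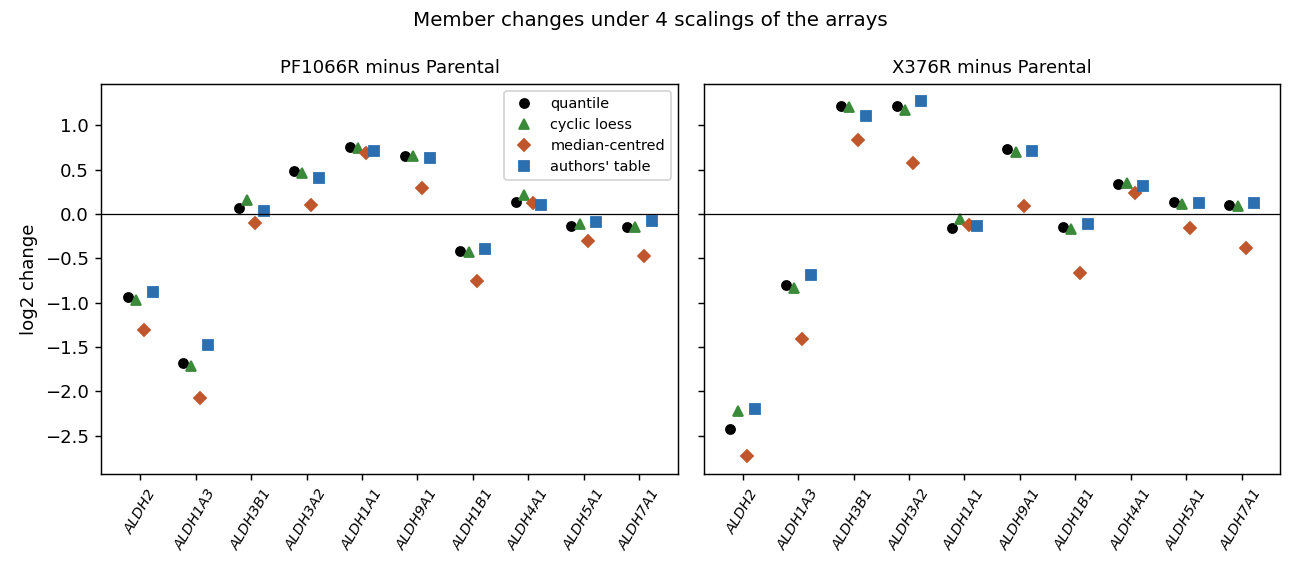
Log2 change (y axis) of the 10 members (x axis) in PF1066R and X376R against Parental under 4 scalings, namely quantile normalization, cyclic loess, centring on the array median and the authors' normalized table, whose replicate 1 columns were made differently from the rest. Median-centred values lie lowest for most members, with ALDH9A1 in PF1066R at 0.29 where quantile normalization gave 0.65, and ALDH7A1 in X376R is turned from 0.11 to -0.39.

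Of 9 other genes of the superfamily, all on the array, 8 were tested and ALDH1L1 was not. In PF1066R 2 were higher and 0 lower, in X376R 0 were higher and 2 lower, and between the resistant lines 0 were higher and 2 lower in X376R. That was 25% of the tested genes in each comparison, beside 18.4%, 28.1% and 16.1% of all genes. Median changes of these other superfamily genes were 0.11, -0.18 and -0.25, beside -0.01, -0.01 and -0.00 for all genes. ALDH3A1, an inducible enzyme left out of the member list, rose by 2.78 ± 0.12 in PF1066R (limma adjusted p = 3.58e-10) and fell by 0.88 on the log2 scale in X376R (limma adjusted p = 3.12e-05). Its X376R level was at the limit, above background on 2 of 3 arrays, so the size of the fall may be understated. ALDH3A2, of the same subfamily, was higher in both lines. ALDH16A1 rose by 0.40 ± 0.12 in PF1066R (limma adjusted p = 0.0270), and failed when arrays were centred on their median (limma adjusted p = 0.109). ALDH18A1, which makes the proline precursor that ALDH4A1 consumes, was lower in X376R (-0.42 ± 0.12, limma adjusted p = 0.0118) and gave 0.07 ± 0.12 in PF1066R. Changes of the other 5, ALDH1A2, ALDH1L2, ALDH3B2, ALDH6A1 and ALDH8A1, lay between -0.28 and 0.15 against Parental and did not pass under quantile normalization. Median centring took ALDH3B2 and ALDH6A1 past the threshold in X376R, at -0.51 and -0.41.

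Genes that supply, bind and answer to retinoic acid, the product of ALDH1A1 and ALDH1A3, were mostly lower where they passed. Of 27 genes listed, 18 were tested. In PF1066R 1 was higher and 7 lower, with a median change of -0.12, where 9.08% of all genes were higher and 9.36% lower. In X376R 2 were higher and 7 lower, with a median of -0.22, beside 14% and 14.2% of all genes. Between the resistant lines 2 were higher and 5 lower in X376R, with a median of -0.00, beside 7.97% and 8.1%. Median centring gave 1 higher and 7 lower in PF1066R, 1 and 10 in X376R, and 0 and 4 between the lines. The gene higher than in Parental in that scaling was PLAAT4 in each resistant line. Under quantile normalization PLAAT4 was likewise higher in both, and RXRA was higher in X376R. STRA6, the cell surface receptor for vitamin A, read 8.32, 8.12 and 7.82 in Parental, 6.52, 7.01 and 6.49 in PF1066R and 7.52, 7.21 and 7.09 in X376R. It fell by 1.42 on the log2 scale in PF1066R (limma adjusted p = 7.94e-06). The retinoic acid receptor RARA fell there by 1.26 (limma adjusted p = 3.00e-07) and DHRS3, which turns retinaldehyde back to retinol, by 1.01 (limma adjusted p = 1.68e-05).

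RDH10, STRA6, CRABP2, FABP5, RARA and TGM2 passed as lower in both resistant lines, and PLAAT4 as higher in both, also with arrays centred on their median. In Parental, PF1066R and X376R the means were 8.92, 7.66 and 7.86 for RARA and 7.97, 7.25 and 6.21 for TGM2. The genes with the largest changes in X376R were nevertheless others than in PF1066R. TGM2, a transglutaminase induced by retinoic acid, fell by 1.76 on the log2 scale (limma adjusted p = 4.25e-09). It read 6.35, 6.08 and 6.19 on the X376R arrays, where the lowest values above background were 6.06, 6.19 and 6.20. The X376R level of TGM2 thus lay at the limit, and falls to that level may be understated. The carrier FABP5 fell by 1.23 (limma adjusted p = 1.28e-07) and RDH10, which makes retinaldehyde from retinol, by 1.23 (limma adjusted p = 3.82e-07). Between the resistant lines, TGM2 was lower in X376R (-1.04 ± 0.11, limma adjusted p = 4.40e-06). DHRS3 (0.72 ± 0.12, limma adjusted p = 0.000426) and STRA6 (0.60 ± 0.16, limma adjusted p = 0.0144) were higher there, as ALDH1A3 was. Those 2 increases did not pass with arrays centred on their median.

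**Figure D5:**
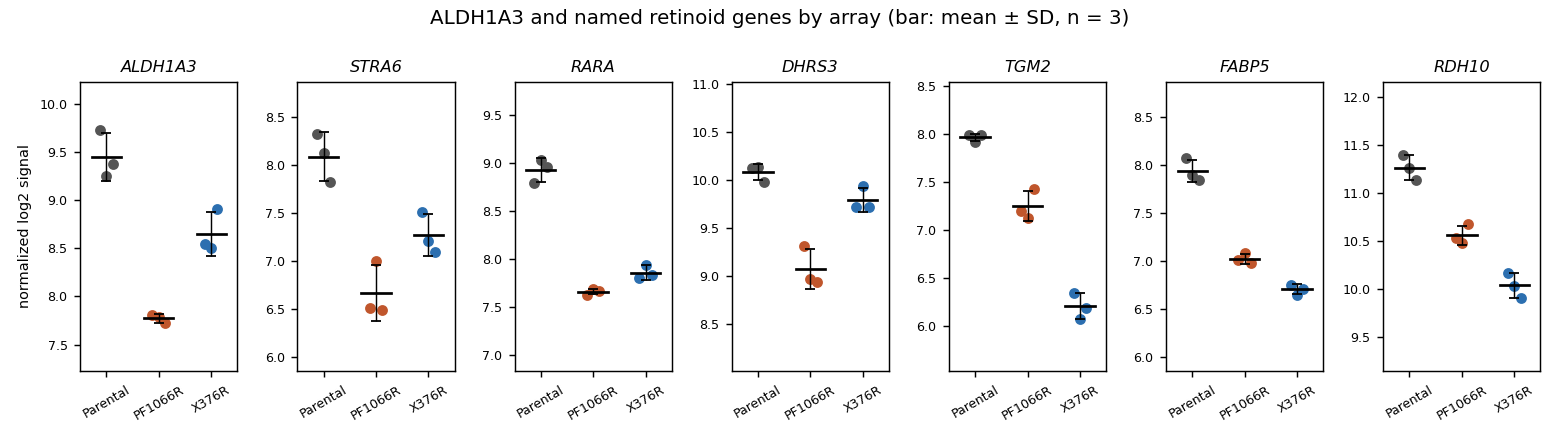
Normalized log2 signal (y axis) of ALDH1A3 and 6 genes of retinoid handling on the 9 arrays, by line (x axis); points are arrays, bars give the mean ± SD of 3 arrays, and all panels span the same log2 height. In STRA6, DHRS3 and RARA, as in ALDH1A3, the PF1066R mean is the lowest (6.67, 9.07, 7.66 and 7.77), with RARA at 7.86 in X376R. In TGM2, FABP5 and RDH10 the X376R mean is the lowest (6.21, 6.71 and 10.03), TGM2 there at the limit of background.

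Of 19 alcohol dehydrogenases and carbonyl reductases, which exchange alcohols and aldehydes, 9 were tested. In PF1066R 2 were higher and 1 lower, in X376R 3 were higher and 0 lower, and between the lines 2 were higher and 0 lower in X376R. These were 33.3%, 33.3% and 22.2% of the tested genes, beside 18.4%, 28.1% and 16.1% of all genes. Median changes of the list were 0.02, 0.07 and 0.09. The largest was AKR7A2, an aldehyde reductase, with 1.02 ± 0.15 in X376R (limma adjusted p = 6.71e-05) and 0.64 ± 0.15 between the lines (limma adjusted p = 0.00729). The carbonyl reductase CBR3 rose in both lines (0.38 ± 0.11 and 0.52 ± 0.11, limma adjusted p of 0.0192 and 0.00127), as did DCXR (0.42 ± 0.12 and 0.38 ± 0.12, limma adjusted p of 0.0237 and 0.0286). AKR7A3 was lower in PF1066R than in Parental (-0.35 ± 0.11, limma adjusted p = 0.0377). No increase of this list passed in any comparison once arrays were centred on their median, where 0 genes were higher.

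Enzymes next to ALDH4A1, ALDH5A1, ALDH7A1 and ALDH9A1 in proline, GABA, lysine, choline and carnitine metabolism were 18, of which 12 were tested. In PF1066R 1 was higher and 0 lower, in X376R 2 were higher and 3 lower, and between the lines 2 were higher and 4 lower in X376R, with medians of -0.07, 0.01 and 0.02. These were 8.33%, 41.7% and 50% of the tested genes, beside 18.4%, 28.1% and 16.1% of all genes. PRODH, which starts proline breakdown upstream of ALDH4A1, read 6.47, 6.49 and 6.26 in Parental, 7.52, 7.82 and 7.67 in PF1066R and 6.52, 6.51 and 6.68 in X376R. PF1066R stood above both other lines (1.26 ± 0.11 against Parental, limma adjusted p = 7.85e-07), while ALDH4A1, read near background, gave 0.14 ± 0.11 there (limma adjusted p = 0.452). ABAT, the GABA transaminase upstream of ALDH5A1, was 2.44-fold higher in X376R (1.29 ± 0.12, limma adjusted p = 6.18e-07), while ALDH5A1, read near background, gave 0.13 ± 0.12. In Parental ABAT read 6.16, 5.99 and 6.18, where the lowest values above background were 6.09, 6.14 and 5.98. The Parental level of ABAT thus lay at the limit, and its fold may be understated. OAT, which feeds ornithine into the same proline intermediate, fell by 1.27 on the log2 scale in X376R (limma adjusted p = 2.16e-06), and the glutamate dehydrogenase GLUD1 by 0.99 (limma adjusted p = 0.00244), with reading of its near-identical copy GLUD2 not tested. With arrays centred on their median, the list had 1 higher and 2 lower in PF1066R and 1 higher and 4 lower in X376R.

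Among 16 enzymes of fatty aldehyde, sphingosine and ether lipid metabolism, around ALDH3A2, 12 were tested. In PF1066R 1 was higher and 1 lower, in X376R 2 were higher and 4 lower, and between the lines 1 was higher and 3 lower in X376R, with medians of -0.03, -0.08 and -0.03. These were 16.7%, 50% and 33.3% of the tested genes, beside 18.4%, 28.1% and 16.1% of all genes. FMO5, a flavin monooxygenase, was higher in PF1066R (1.16 ± 0.11, limma adjusted p = 1.44e-06) and AGPS, an ether lipid synthase, lower in PF1066R and X376R (-0.78 ± 0.14 and -0.54 ± 0.14, limma adjusted p of 0.00105 and 0.00890). PHYH, a hydroxylase in the breakdown of phytanic acid, a route that yields a fatty aldehyde, was higher in X376R (0.71 ± 0.13, limma adjusted p = 0.000463). FAR2, a fatty acyl-CoA reductase, was lower there (-0.68 ± 0.12, limma adjusted p = 0.000323). Between the lines FMO5 and FAR1, the other fatty acyl-CoA reductase, were lower in X376R (-0.998 ± 0.11 and -0.63 ± 0.14, limma adjusted p of 5.53e-06 and 0.00354). Median centring left 0 of these genes higher in X376R.

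For the 3 members with the widest gaps between lines, the genes with the most similar pattern over the 9 arrays are given as a description, since all genes that separate the lines share these 3 groups. ALDH2 followed TGM2 (Pearson's r = 0.993), the alkaline phosphatase ALPL (0.992) and complement factor CFB (0.990), all highest in Parental and lowest in X376R. In X376R, TGM2 lay at the limit of background and ALDH2 close to it. ALDH1A3 followed the protease inhibitor SERPINE2 (0.982), SKAP2 (0.975) and YY1AP1 (0.974), lowest in PF1066R. ALDH3B1 followed CCDC9B (0.991), IGFBP7 (0.991), a binding protein of insulin-like growth factors, and the cytosolic aconitase ACO1 (0.987), highest in X376R.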

How the data were processed

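Total RNA was turned into biotinylated cRNA for Illumina arrays, per the labels' protocols. The authors deposited linear intensity values for 47323 probes, 1 of them without a value, and how the scanner's readings were summarised is not stated in those labels. They also deposited normalized log2 values (R 2.15 per the submitters' processing notes) and served only as an alternative. Their column medians were 6.48 to 6.49, their order matches the signals in direction, and how the replicate 1 columns were adjusted is unknown. Signals were background-corrected with limma 3.58.1 (R 4.3.3; normexp, offset 50), quantile-normalized and put on a log2 scale. The tables name no control probes and give no detection p, so 92 unnamed probes of 1 identifier range were taken as external controls from knowledge of the platform. Probes above the highest of them on at least 3 of 9 arrays were kept (26814 probes), and the probe with the highest mean stood for each of 13769 genes. Symbols came from a platform table (1 symbol for 30112 probes, several for 8, none for 17202), updated through the GRCh38.p14 gene table.

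The 9 arrays entered 1 limma model with a coefficient for each line. The same model over all 26814 probes gave the values of further probes. Arrays of a line correlated with r of 0.980 to 0.989 and arrays of different lines with r of 0.929 to 0.963 over the genes tested. The number of arrays limits the precision. The script was tested on simulated data, where estimated changes were smaller than those put in, so printed folds may understate changes. The members, lists and tests were chosen with earlier results of these data known. Named were all members, every tested gene of the other superfamily list, up to 3 genes of each further list per comparison by size of change, and the 3 genes most like each of the 3 members with the widest gaps. Background correction, normalization, filter, choice of probe, the authors' table, array brightness, a replicate block and each array left out were tried as alternatives, and replicates 2 and 3 alone were added after seeing the data.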

Additional observations from a re-analysis of the deposited data

Results flagged for a closer look

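For 5 of the 10 members the change from Parental differed between the resistant lines by a direct test of X376R against PF1066R (limma, n = 3 arrays a line, adjusted over all genes, of which 16.1% passed); both changes use the same Parental arrays. ALDH2 was lower by 0.93 in PF1066R and by 2.42 in X376R on the log2 scale, a difference of -1.49 ± 0.11, and all 3 X376R arrays lay below all 3 PF1066R arrays. ALDH1A3 was lower in both lines and less so in X376R, a difference of 0.88 ± 0.14 by 1 of its 2 probes, with 0.41 ± 0.17 by the other. ALDH1A1 had a fitted difference of -0.91, which is no measured size because no X376R array was above background and the probe entered the test through PF1066R, so that a bound of at least 1.53-fold stands in its place. ALDH3A2 was higher in both lines and more so in X376R, a difference of 0.73 ± 0.13 that did not pass with arrays centred on their median. ALDH3B1 was higher in X376R alone by 1 of its 2 probes, a difference of 1.16 ± 0.12, and its other probe was close to background.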

How the results depend on the processing

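Of 564 values of single members recomputed under the alternatives, those with 1 array left out kept their side of the threshold 258 times and lost a call 12 times. Under the other alternatives 277 kept it, 14 lost a call, 2 gained one and 1 reversed, and no called direction turned. The reversal was ALDH7A1 in X376R against Parental, which had not passed and gave -0.39 with arrays centred on their median. That scaling accounted for 6 of the lost calls and both of the gained ones; the cause was not tested. Calls of ALDH2, ALDH1A3 and ALDH3B1 held in every alternative run. Those of ALDH1A1, which entered the test through PF1066R, held in every run that gave it a value. With probes required above background on all 9 arrays ALDH1A1 gave no value, and ALDH4A1 gave none either. ALDH2 in X376R ranged from -2.73 to -2.16 and ALDH1A3 in PF1066R from -2.07 to -1.48. ALDH1A3 in X376R ranged from -1.41 to -0.61. With array brightness as a covariate, 1252 genes passed in PF1066R (2539 without it) and 1391 in X376R (3875); brightness differs between the lines, so the 2 cannot be fully told apart. Median centring left 978 genes past the threshold between the resistant lines (2213). With 1 array left out in turn, genes past the threshold ranged from 1862 to 2811, 3078 to 3860 and 1617 to 2197, and members from 4 to 6, 5 to 6 and 5 to 5. Replicate numbers are shared between the lines, but nothing in the labels says that they mark a common origin. Same-numbered arrays had deviations correlated at -0.05 to 0.22, and 5 of 9 arrays correlated best with their own number. With the replicate block 2886, 4167 and 2477 genes passed, and 6, 6 and 5 members. With replicates 2 and 3 alone, added after seeing the data, 1428, 2595 and 1311 genes passed, and 4, 5 and 5 members; fewer arrays enter this fit.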
